A study of Mus musculus with 9 samples.

Results

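Activated migratory dendritic cells were picked out of a CITE-seq experiment on mouse spleen, in which transcripts and antibody tags were read from the same single cells. A cell was taken as a member when its raw UMI counts (UMIs are molecular tags, each marking 1 captured molecule) showed at least 2 UMIs of Fscn1, at least 1 of Ccr7, at least 5 of H2-Aa, at most 1 of Cd79a and none of Cd3d, Cd3e or Cd3g. The members were thus chosen by RNA counts of these genes. Among the 45217 cells with 1 hashtag there were 82 such cells, of 51451 barcodes in all. WT held 30 of them (6, 7, 11 and 6 in replicates 1 to 4), R594C/+ held 28 (8, 2, 8 and 10), and R594C/R594C held 24 (13 and 11). The 2 members of R594C/+ replicate 2 were too few for a sum per replicate, so this replicate stayed out of every fit below, which leaves 9 replicates.

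The mice carried R594C, a change in IRE1, on no allele (WT), on 1 allele (R594C/+) or on both (R594C/R594C), with no treatment given in the labels and no mouse ages used here. IRE1, encoded by Ern1, is the sensor of the endoplasmic reticulum (ER) that splices Xbp1 mRNA, and the design asked whether the change alters the immune cells of the spleen. Total splenocytes were sorted with DAPI, and each genotype was 1 droplet capture in which hashtag antibodies marked the replicates, so an effect of genotype cannot be told apart from one of capture or staining. The labels call these samples replicates and do not name them as separate mice, so a p-value here covers only how far these samples lie from one another. By Xist RNA, WT replicate 2, all R594C/+ replicates and R594C/R594C replicate 2 were female and the others male.

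Dendritic cells take up antigen and show it to T cells. Resting conventional dendritic cells of the spleen fall into type 1 cells, which carry XCR1, CLEC9A and in mice CD8a and are known for presenting antigen on MHC class I, and type 2 cells, which carry SIRPα (CD172a) and often CD11b and CD4. When a conventional dendritic cell of either type matures, it raises the chemokine receptor CCR7, which guides it to T cell zones, and the actin-bundling protein fascin (Fscn1), together with NF-kB factors such as RelB, costimulatory ligands, and molecules that hold T cells back. The same programme is known from sites without infection as well as after it. Cells were compared below with 176 type 1 cells and 255 type 2 cells, gated on the same H2-Aa, Cd79a and Cd3 limits. Type 1 cells held at least 2 UMIs of Xcr1 plus Clec9a. Type 2 cells held at least 2 UMIs of Cd209a, Clec10a plus Sirpa, and at least 1 of Itgax, Flt3 plus Zbtb46. They also held no UMI of Xcr1, Clec9a or Siglech and at most 1 of Csf1r, limits not set for the members.

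The tag barcodes that carry the surface results are shown first, because each surface value below is a count of one of these 15-base oligos, and the hashtags assign each member to its replicate. They are printed in lower case from 5′ to 3′ as deposited, with no part in capitals because the whole run is the identifier.
CD86 tag: ctggatttgtgtatc
I-A/I-E (MHC class II) tag: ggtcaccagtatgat
CD8a tag: tacccgtaatagcgt
CD172a tag: gattcccttgtagca
XCR1 tag: tccattacccacgtt
Hashtag1 (replicate 1): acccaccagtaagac
Hashtag2 (replicate 2): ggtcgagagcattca
Hashtag3 (replicate 3): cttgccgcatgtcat
Hashtag4 (replicate 4): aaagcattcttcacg

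The members held a median of 6963.5 RNA UMIs (1666 to 14836), 2122.5 genes and 591 antibody UMIs, against 11373 RNA UMIs in type 1 cells, 7356 in type 2 cells, 3212 in B cells (at least 5 UMIs of Cd79a) and 3617 in T cells (at least 3 UMIs of the Cd3 genes). Of all called cells, 186 barcodes occurred in more than 1 capture. They included 2 members, whose partner in the other capture was not a member. Markers of other cells, given as summed RNA level in CPM (UMIs scaled to a total of 1e+06), were low: B cell markers reached 94.9 CPM against 5945 in B cells, T cell markers 15.3 against 4447 in T cells, and both platelet markers were at 0. The rule limited Cd79a and the Cd3 genes in the members, and the B and T cells were gated on them. The B and T cell contrasts are thus partly set by the gates. Of 82 members, 22 held a UMI of Ms4a1 or Cd79b. Plasmacytoid markers summed to 271 CPM against 1363 in type 1 cells. Markers of monocytes and macrophages summed to 219 CPM, with 1386 in WT replicate 1, where Lyz2 stood at 1165.

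The label was checked against Fscn1, Ccr7, Relb and Ccl22, of which only the first pair served in the rule. All RNA levels of members against conventional cells are given as descriptions with no test, because the rule used RNA of the same cells. Relb, the NF-kB subunit that dendritic cells need to mature, was read in 76 of 82 members. Its level by replicate was 683, 571, 877 and 911 CPM in WT, 989, 353, 972 and 677 CPM in R594C/+, and 833 and 638 CPM in R594C/R594C. These values lay above all 9 fitted type 2 replicates (167 to 316 CPM) and all type 1 replicates (23.6 to 153 CPM), and the groups did not overlap. Ccl22, the chemokine by which mature dendritic cells draw CCR4-bearing T cells, was patchy: 17 of 82 members held a UMI, and 16 of these also held Relb. Its level ran 60.3, 235, 12.3 and 935 CPM in the WT replicates, 262, 282, 106 and 51.1 in R594C/+, and 124 and 0 in R594C/R594C, against 23.9 CPM over type 1 cells and 0 over type 2 cells. WT replicate 4 was the highest and R594C/R594C replicate 2 had none. All 39 Ccl22 UMIs of WT replicate 4 came from 1 cell, which held 1 Cd79a UMI and so lay at the limit of the rule, and without it that replicate stood at 0 CPM. Relb was thus read in most members, while Ccl22 marked a minority of cells.

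**Figure D1:**
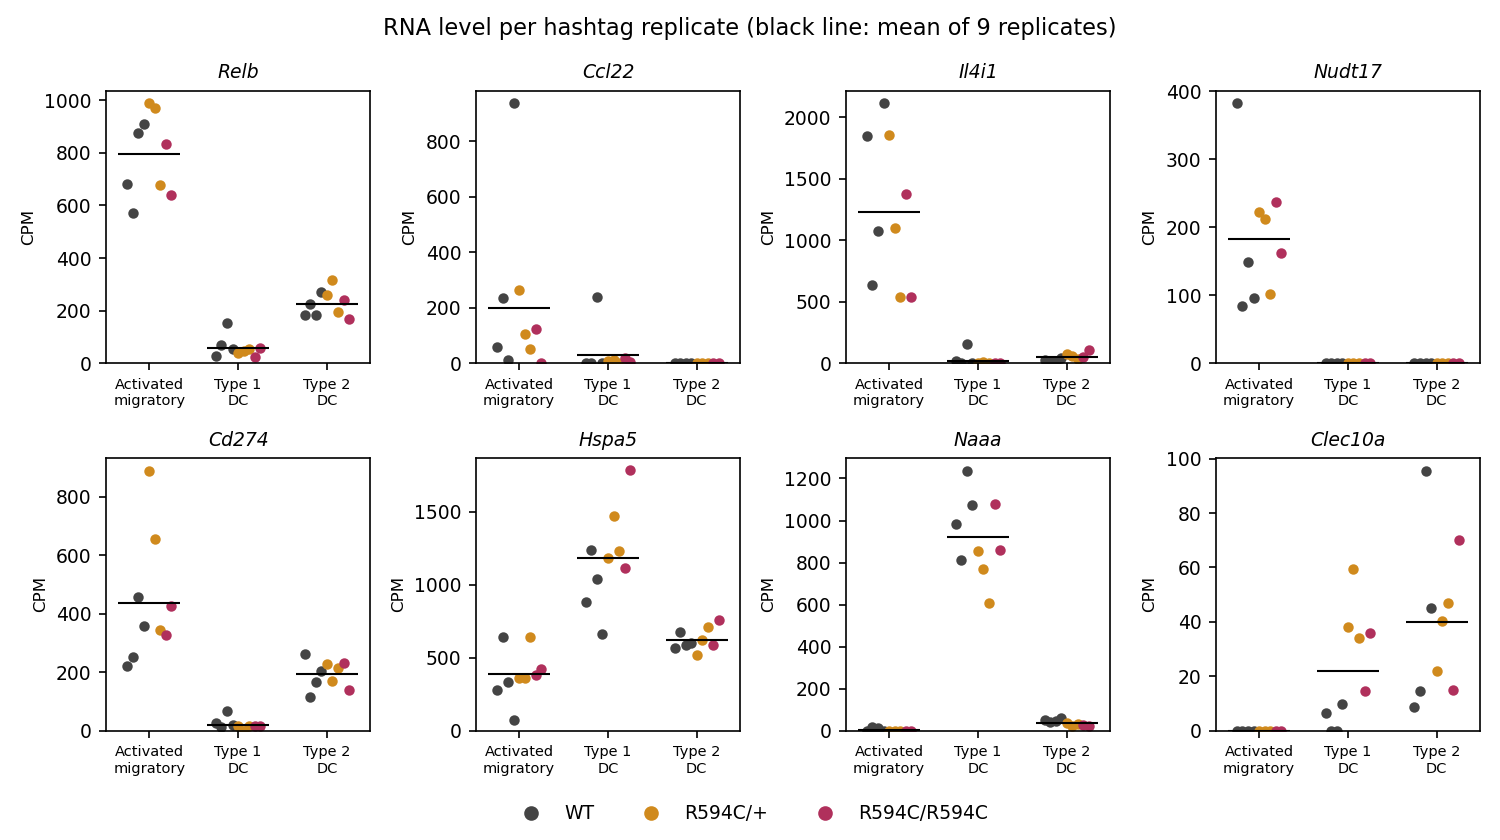
RNA levels (CPM, linear axes from 0) of 8 genes in each hashtag replicate, for activated migratory, type 1 and type 2 dendritic cells, with points coloured by genotype and a line at the mean of the 9 replicates fitted. Relb, Il4i1 and Nudt17 sit above both conventional types in every replicate, Hspa5 lies below type 1 cells in its mean, and Naaa and Clec10a are at or near 0 in the members.

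The rule's own genes describe the gate and nothing more: Fscn1 stood at 1530 CPM (type 1 cells 1.43, type 2 cells 8.51), and Ccr7 at 3426 CPM (48.3 and 197). Beyond them, the highest ratios of summed CPM over both conventional types named a set of genes that the rule did not use. Nudt17, a hydrolase of the nudix family, had no UMI in 431 conventional cells and was read in 43.9% of members, which makes it at least 250-fold higher against a floor of 3 counts over the whole group. It ranged from 84.0 CPM (WT replicate 2) to 382 CPM (WT replicate 1). Tnfrsf4, which encodes the receptor OX40, stood at 159 CPM against 1.43 and 1.00, Mdk, the growth factor midkine, at 117 against 0.48 and 0.50, and Socs2, a brake on cytokine signalling, at 266 against 3.82 and 1.5. Cacnb3, a calcium channel subunit, stood at 325 CPM against 5.26 and 0.50 CPM, and Anxa3, a membrane-binding annexin, at 583 CPM against 1.91 and 11. In all 9 fitted replicates Nudt17, Cacnb3, Anxa3 and Socs2 were higher in members than in the conventional cells of the same replicate. The others of the 25 highest ratios were Asprv1, Adcy6, Gm42602, Crispld2, Insm1, Ankrd33b, Flrt3, Dkk2, Slco5a1, Gm2396, Cdk5r1, Synpo2, Prnp, Lad1, Sh2d4a, Nrgn, Cdkn2b and Gm37606. Of these, Insm1, Dkk2 and Sh2d4a also had no UMI in any conventional cell.

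Genes of migration and the cytoskeleton were higher as a group. Of 14 listed genes, 13 had at least 30 UMIs in members plus conventional cells, and 11 of the 13 were higher in the members, with a median ratio of 3.93. Over all genes with that depth, 3576 of 8999 were higher, with a median ratio of 0.879, and these counts are descriptions of levels. Tbc1d4, a Rab GTPase-activating protein, was read at 2396 CPM against 136 in type 1 and 773 in type 2 cells, Marcks, which binds actin and the membrane, at 2164 against 580 and 519, Marcksl1, its relative, at 1135 against 45.4 and 181, and Samsn1 at 966 against 88.4 and 187. Gpr183, the oxysterol receptor that positions dendritic cells in the spleen, stood at 535 CPM against 73.6 and 224, and Cd63, a tetraspanin of late endosomes, at 573 against 2.87 and 26.5. The exceptions were Coro1a (517 against 1096 and 965 CPM) and Arpc2 (934 against 1318 and 965 CPM).

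NF-kB genes were higher in the members for each of the 15 genes listed, with a median ratio of 2.45 and a summed level of 11313 CPM against 2083 in type 1 and 5308 in type 2 cells. Among cells with 3000 to 15000 RNA UMIs, 14 of the 15 were higher and Nfkb1 was lower. By replicate the sum ranged from 9584 to 14218 CPM. Nfkbia, the inhibitor IκBα that NF-kB itself induces, was the most abundant of them, at 2481 CPM against 368 and 756, followed by Rel (2100 against 399 and 1336), Traf1, an adaptor of TNF receptors (1681 against 168 and 743) and Bcl2a1b, a survival factor (1132 against 168 and 397). Birc2, a ubiquitin ligase of the non-canonical branch, stood at 590 CPM against 46.3 and 107, and Nfkb2, the subunit that pairs with RelB, at 210 against 62.6 and 111. In at least 8 of the 9 fitted replicates 12 of the 15 were higher than in the conventional cells, against 615 of 8999 over all genes. The remainder of the 15 were Rela, Nfkb1 and Nfkbie. Nfkb1 (297 CPM) and Nfkbie (280 CPM) lay below type 2 cells (413 and 298 CPM). Reads of Bcl2a1b and Bcl2a1d, near-identical copies, may have been split between them.

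Promoter windows of genes in that list are shown because each listed gene was higher in the members than in the pooled conventional cells. Matches to the kappa-B consensus (by name, searched on both strands) are in capitals. Each window runs from 250 bases before to 50 after the start of the gene, in RefSeq's GRCm38.p6 assembly, on the gene's strand. RefSeq held a window for 13 of the 15 genes, and 5 of the 13 (38.5%) had a match, against 9.55% of 27025 genes and 8.46% of 32851 windows. The genes were listed as NF-kB genes beforehand, so this share describes the list and not the members. The genes without an entry were Relb and Nfkb1, as was Ccr7 outside the list.
Nfkb2, chr19:46304487-46304786, + strand: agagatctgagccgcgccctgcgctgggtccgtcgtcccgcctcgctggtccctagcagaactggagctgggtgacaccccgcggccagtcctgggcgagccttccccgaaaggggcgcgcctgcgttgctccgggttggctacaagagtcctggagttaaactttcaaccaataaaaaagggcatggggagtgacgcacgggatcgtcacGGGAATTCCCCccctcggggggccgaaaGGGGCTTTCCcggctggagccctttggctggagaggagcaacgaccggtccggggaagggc
Rel, chr11:23770920-23771219, - strand: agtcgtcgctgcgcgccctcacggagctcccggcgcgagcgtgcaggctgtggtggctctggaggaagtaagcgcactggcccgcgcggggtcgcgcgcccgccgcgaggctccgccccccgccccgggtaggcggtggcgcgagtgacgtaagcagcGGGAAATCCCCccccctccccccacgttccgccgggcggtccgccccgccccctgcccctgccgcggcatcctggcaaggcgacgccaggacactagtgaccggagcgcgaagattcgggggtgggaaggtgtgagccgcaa
Nfkbia, chr12:55492598-55492897, - strand: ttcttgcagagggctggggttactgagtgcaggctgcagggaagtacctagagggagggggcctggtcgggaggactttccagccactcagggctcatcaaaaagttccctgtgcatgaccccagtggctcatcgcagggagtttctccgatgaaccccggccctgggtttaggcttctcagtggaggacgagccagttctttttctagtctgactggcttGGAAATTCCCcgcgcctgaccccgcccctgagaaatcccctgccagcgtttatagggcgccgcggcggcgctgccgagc
The Nfkb2 window shown, 1 of several for that gene, held 4 matches over 21 bases, the Rel window 3 overlapping matches over 11 bases, and the Nfkbia window 1 match over 10 bases. The windows of Fscn1 and Ccl22 held no match. A match is a description of letters in a window and was tied to no binding in these data.

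Costimulatory genes were higher for 7 of the 8 that reached 30 UMIs, with a median ratio of 2.15. Cd40, the receptor through which T cells license dendritic cells, stood at 237 CPM against 33.9 and 47.0, Icosl, the ligand of ICOS, at 346 against 33.9 and 115, and Tnfsf9, which encodes 4-1BB ligand, at 249 against 22.5 and 97.6, all 3 in 9 of 9 replicates. Cd86 RNA was not set apart from type 2 cells (402 CPM against 480, and 175 in type 1 cells), and Cd83 stood at 2145 CPM against 1028 and 1802. Cd48 was lower, at 67.8 CPM against 193 and 169. Cd70, the ligand of CD27, was read in members at 35.6 CPM and in no conventional cell.

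Genes known to restrain T cells or cytokine signals were higher for 9 of the 10 with 30 UMIs, with a median ratio of 3.87. Il4i1, a secreted amino acid oxidase, was the most abundant, with 1848, 639, 1074 and 2110 CPM in the WT replicates, 1857, 1975, 1099 and 536 in R594C/+, and 1373 and 538 in R594C/R594C. All 10 values lay far above type 1 (16.2 CPM) and type 2 cells (49.5 CPM). Cd274, which encodes PD-L1, stood at 413 CPM against 19.6 and 204, Cd200 at 198 against 17.2 and 3.00, and Fas, the death receptor, at 112 against 4.78 and 2.00. Pvr reached 129 CPM against 37.7 and 96.6. Tgfb1 was the exception, at 93.2 CPM against 182 and 217.

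Chemokines did not move as a group: 6 of 9 were higher, with a median ratio of 1.67. Ccl5, a chemokine that draws T cells, was read in 78.0% of members, but unevenly over replicates, at 6309, 1395, 3803 and 5754 CPM in WT, 868, 5290, 3826 and 268 in R594C/+, and 2926 and 5367 in R594C/R594C. In WT replicate 1, 281 of the 314 Ccl5 UMIs came from 1 cell, without which it stood at 926 CPM. Even the lowest of these replicates exceeded the summed level of type 2 cells (192 CPM), and type 1 cells lay at 14.3 CPM. Cxcl16 (669 CPM against 130 and 94.1) was higher in all 9 replicates. Ccl4 (1166 CPM) lay below both types (2119 and 1797), and ranged from 0 to 3630 CPM between replicates. Ccl17, the partner of CCL22 at CCR4, was read at 6.78 CPM, and Ccl19 had no UMI in any of the 3 classes. Among cytokines and their receptors, Il12b, the p40 subunit of IL-12 and IL-23, was found in 17 of 82 members, at 388 CPM against 34.9 and 0, with 73 of its UMIs in 1 cell of R594C/R594C replicate 2, and Il21r, a receptor for a T cell cytokine, stood at 327 CPM against 12.9 and 116.

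MHC class I genes were mixed, with 9 of 13 higher and a median ratio of 1.15, and B2m (4198 against 1883 and 2252 CPM) and H2-K1 (2847 against 1301 and 1557 CPM) led by level. Psme2, a subunit of the proteasome activator, stood at 849 CPM against 401 and 261. MHC class II RNA was mostly a little lower, with 10 of 12 genes below the conventional cells and a median ratio of 0.745. Cd74, the invariant chain, stood at 14711 CPM against 18155 and 16336, and H2-Ab1 at 6016 against 9264 and 8671. March1, the ubiquitin ligase that removes MHC class II and CD86 from the surface, was at 27.1 CPM against 158 and 119.

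Identity genes of type 1 cells were low, and so were most of those of type 2 cells. All 10 type 1 genes were lower (median ratio 0.0536; 9 of 10 among cells with 3000 to 15000 RNA UMIs, where Cd24a was higher), of which Xcr1 and Clec9a belong to the gate of type 1 cells. Naaa, a lysosomal hydrolase typical of type 1 cells, was read at 3.39 CPM against 948 and 37.0, Ppt1 at 27.1 against 1047 and 49.5, and P2ry14 at 6.78 against 300.5 and 1.5. The others of the 10 lowest ratios were Rab7b, Xcr1 and Ifi205, with no UMI in any member, Clec9a (1.69 CPM), Cd209a (8.47 CPM), BC028528 and Olfm1. Of 9 type 2 genes 7 were lower (median ratio 0.678), of which Cd209a, Clec10a and Sirpa belong to the gate of type 2 cells, so that their order is partly set by it. The exceptions were Esam, an adhesion molecule (52.5 CPM against 1.91 and 22.5), and Ltb (244 CPM against 31.5 and 403). Genes of dendritic cells in general were split, with 7 of 12 higher. Id2 (1930 against 967 and 168 CPM) and Etv3 (1335 against 204 and 478 CPM), both transcription regulators, were higher in all 9 replicates, Flt3 (129 against 141 and 131) and Zbtb46 (83.0 against 64.5 and 79.6) lay near both types, and Irf8 (449 CPM) lay between type 1 (2149) and type 2 cells (53.5).

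Genes of the IRE1 and XBP1 branch were lower in the members than in both conventional types together. Of 27 genes with 30 UMIs, 25 were lower, with a median ratio of 0.466 and a summed level of 2718 CPM against 6075 in type 1 and 3262 in type 2 cells. Hspa5, which encodes the ER chaperone BiP, was 281, 639, 333 and 71.9 CPM in WT, 363, 212, 359 and 638 in R594C/+, and 383 and 425 in R594C/R594C, against 1181 CPM in type 1 and 614 in type 2 cells. It was lower than type 1 plus type 2 cells of the same replicate in 9 of 9 replicates, and the 3 genotypes overlapped. WT replicate 2 and R594C/+ replicate 4 were not lower than the summed level of type 2 cells alone. Hsp90b1 (271 against 859 and 295 CPM) and Manf (86.4 against 355 and 132) followed the same order. The exceptions were Herpud1 (563 against 526 and 483 CPM) and Edem1 (102 against 74.1 and 61.6 CPM), both of ER-associated degradation. Xbp1 itself was read with 26 UMIs in all members (44.1 CPM against 170 and 98.1), as 51.6 ± 44.6 CPM (SD, n = 4) in WT, 46.4 ± 28.4 in R594C/+ (n = 3) and 29.4 ± 6.18 in R594C/R594C (n = 2). Neither Xbp1 nor Ern1, which had 1 UMI in all 82 cells, passed the filter on low counts for the contrasts between genotypes. Without that filter the log2 difference of Xbp1 was -0.65 for R594C/R594C minus WT, -0.08 for R594C/+ minus WT and -0.57 for R594C/R594C minus R594C/+ (edgeR adjusted p = 0.937, 1 and 1). Its R594C/R594C minus WT effect differed from that in type 2 cells by -1.11 (SE 0.931, edgeR adjusted p = 1). Spliced Xbp1 is not told from unspliced in these counts.

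**Figure D2:**
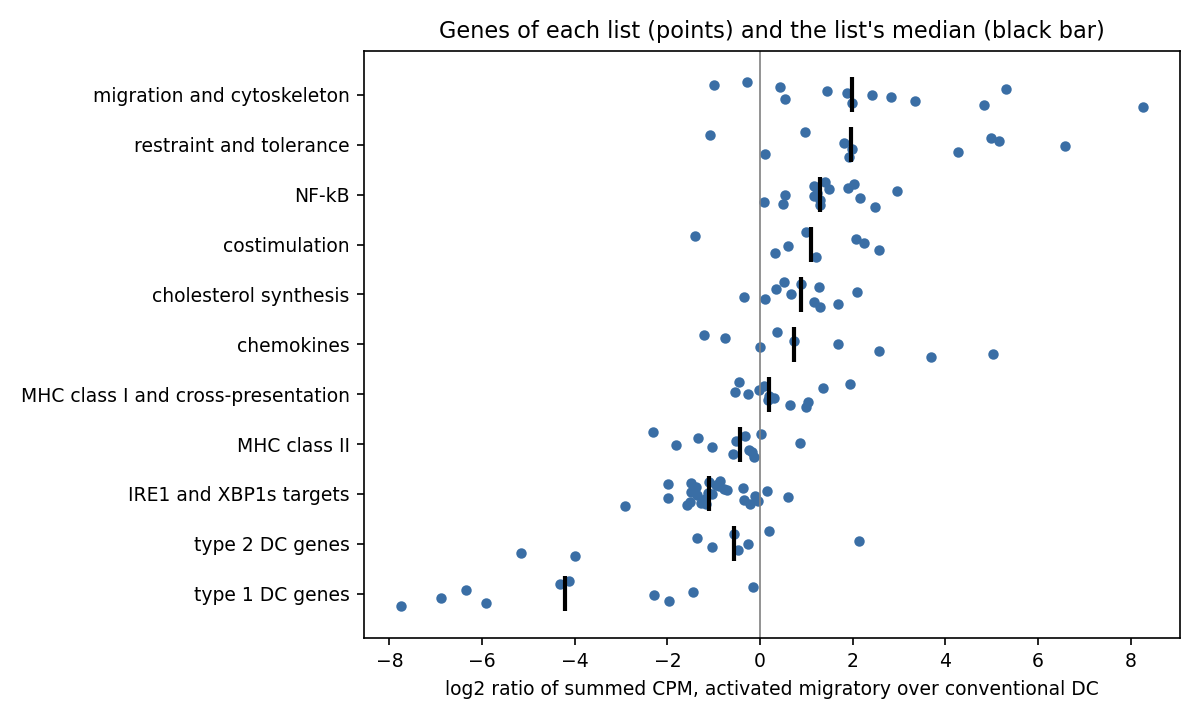
Log2 ratio of summed CPM in activated migratory cells over type 1 plus type 2 cells, for each gene with at least 30 UMIs (points) of 11 lists, with a black bar at the list's median. All NF-kB genes lie right of 0 and all type 1 genes left of it, and 25 of 27 IRE1 and XBP1s targets lie left of 0 (with cells of any depth).

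Surface tags, which the rule did not use, were tested against each conventional type in the same replicates. Against type 2 cells, 15 of the 68 antibodies with enough counts differed (22.1% called), 9 of them higher and 6 lower, with edgeR's quasi-likelihood test and Benjamini-Hochberg adjustment. The CD86 tag, on a costimulatory ligand, was read at 15.8, 11.6, 17.2 and 8 UMIs per cell in the WT replicates, 18.4, 24, 8 and 15 in R594C/+, and 12.2 and 14.2 in R594C/R594C. Type 2 cells lay between 1.56 and 8.55 UMIs per cell, B cells averaged 2.04 and T cells 3.61. The log2 difference from type 2 cells was 2.22 (SE 0.187, adjusted p = 4.87e-07, higher in 9 of 9 replicates). The I-A/I-E tag, on MHC class II, rose by 1.13 on the log2 scale (SE 0.0853, adjusted p = 2.42e-07, 9 of 9 replicates), with 187 UMIs per cell against 88.7 in type 2 and 76.1 in type 1 cells. Its replicates ranged from 136 to 306 in the members and from 57.8 to 132 in type 2 cells. Cd86 RNA stood at 402 CPM against 480 in type 2 cells. H2-Aa RNA is a gene of the rule and is not set beside its tag.

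The other tags that rose against type 2 cells were CD63 (log2 2.62, 3.83 against 0.498 UMIs per cell), CD54, the adhesion molecule ICAM-1 (0.95, 64.2 against 34.7), CD278_0171, the T cell costimulator ICOS (1.59), CD8a (2.88), CD200 (1.66), CD24 (1.37) and CD272 (0.90). Another tag named CD278 had too few counts to be tested against either conventional type. CD8a, CD200 and CD24 were uneven between replicates: CD8a lay between 0 and 26.3 UMIs per cell and CD200 between 0.333 and 12.1. The tags that fell were CD11b_mh (-0.87), CD48 (-0.41), the transferrin receptor CD71 (-0.98), CD172a (-0.54), CD102 (-0.73) and CD68 (-1.51). CD172a is the product of Sirpa, which helped to choose the type 2 cells. The split of 9 higher and 6 lower became 8 and 22 when tags were scaled to their total instead of by TMM, which moved the median of all tags from -0.18 to -0.54. The sign of all 15 was the same under TMM, total and per-cell scaling, and CD272 was the one tag called under TMM and not under each of the others. When each replicate was left out in turn, 9 of the 15 were called every time, and CD102, CD68, CD272, CD172a, CD48 and CD24 were not. The split was 10 higher and 2 lower without R594C/+ replicate 4, and 7 and 3 without R594C/R594C replicate 1.

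Against type 1 cells 36 of 68 tags differed (52.9% called), with 16 higher and 20 lower (10 and 28 with scaling to the total, 9 and 31 per cell). The highest were CD274 (log2 3.34, SE 0.251, adjusted p = 6.15e-07), ESAM (3.13), CD172a (2.79), CD63 (2.76), CD11b_mh (2.73), CD278_0171 (2.52), I-A/I-E (1.75) and CD86 (1.18). CD274, known as PD-L1, was read at 11.3 UMIs per cell in members, 1.56 in type 1 and 9.75 in type 2 cells, and was higher than in type 1 cells in 9 of 9 replicates. The lowest were CD317 (-3.69), CD8a (-2.94), XCR1 (-2.92), CD371 (-2.35), Ly6A_Ly6E (-1.77), CD366 (-1.77), CD24 (-1.56) and CD9 (-1.53). Xcr1 RNA helped to choose the type 1 cells. Every tag named so far against type 1 cells was called under TMM, total and per-cell scaling and in each fit that left out 1 replicate. Of all 16 higher calls, 9 were called under all 3 scalings, as were the 20 lower ones, and 29 of the 36 calls were made in every fit that left out 1 replicate. Called tags kept their sign under the 3 scalings in 34 of 36 cases. CD54 was 1 of those that did not, and an isotype control, IgG2a (-1.05), was called too. The CD197 tag, on CCR7, was near its level in other cells (0.28 UMIs per cell against 0.165 in type 2, 0.185 in B and 0.191 in T cells), so that antibody could not show CCR7 protein at this depth.

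**Figure D3:**
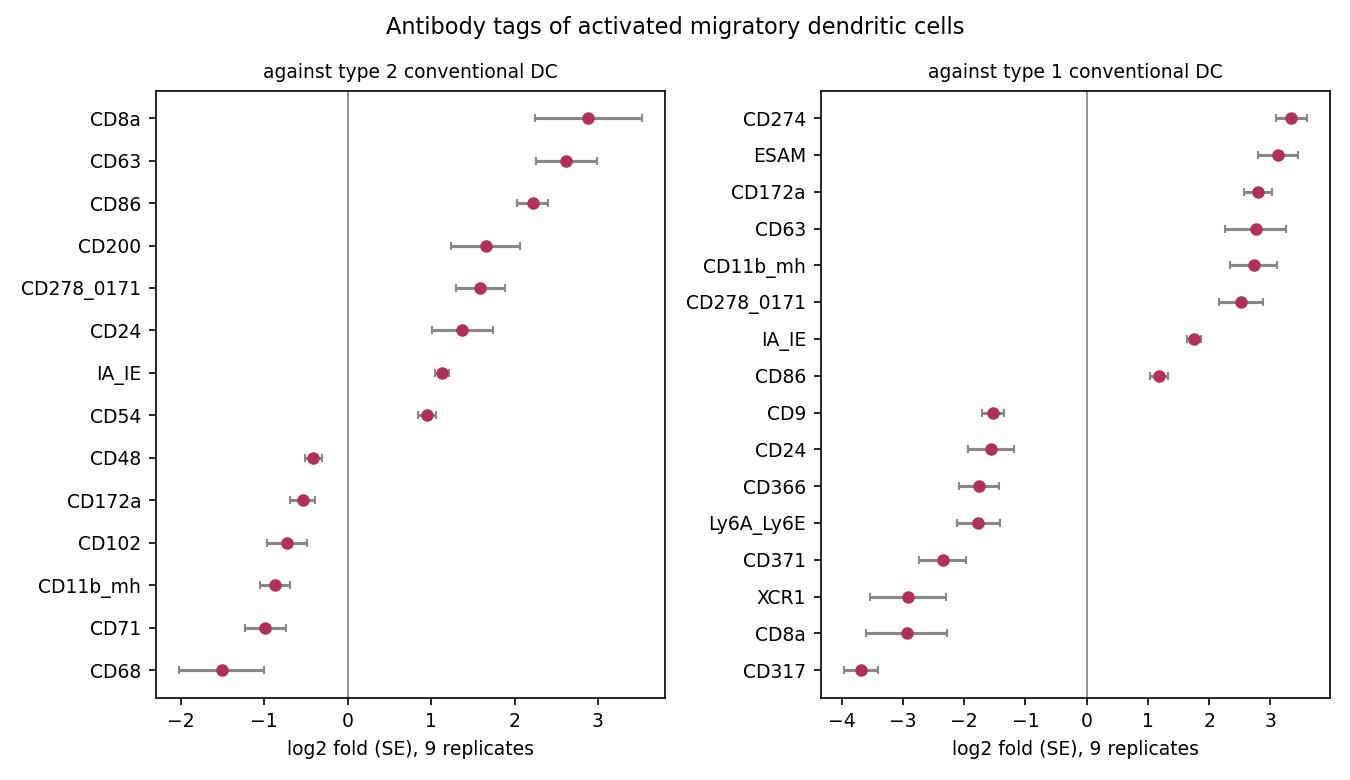
Log2 difference of antibody tags between activated migratory and type 2 cells (left) or type 1 cells (right), as points with the SE over 9 replicates, for the called antibodies with the largest differences, up to 8 in each direction. CD86, CD63, CD278_0171 and I-A/I-E (IA_IE) lie right of 0 in both panels, while CD8a and CD24 lie right of 0 against type 2 cells and left of 0 against type 1 cells.

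The members were not uniform in the surface tags by which type 1 and type 2 cells are told apart. With a threshold of 5 UMIs, set after the values were seen and carrying no test, 12 members (14.6%) had the CD8a tag without the CD172a tag, 54 (65.9%) had CD172a without CD8a, 4 had both and 12 had neither. The CD8a tag passed 5 UMIs in 67.6% of type 1 cells and 0.784% of type 2 cells, and the CD172a tag in 10.2% and 87.8%. Each genotype had CD8a-tagged members (WT 5, R594C/+ 4, R594C/R594C 3), and CD172a-tagged members numbered 21, 18 and 15. By replicate the 12 came from 6 of the 10 replicates, with 3 each in WT replicate 1, R594C/+ replicate 4 and R594C/R594C replicate 1.

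Other tags separated along the same line. The XCR1 tag was read in 9 of the 12 CD8a-tagged members (2.50 UMIs per cell) and in 2 of the 54 CD172a-tagged members (0.037), although Xcr1 RNA had no UMI in either. CD11b stood at 1.00 UMI per cell in the CD8a-tagged cells and 28.1 in the CD172a-tagged cells, CD4 at 1.42 and 11.3, ESAM at 1.25 and 3.89, CD103 at 1.42 and 0.241, and CD371 at 4.33 and 1.54. The T cell tags CD3 (0.917 and 1.00) and TCRb (0.0833 and 0.167) did not follow, and CD3e had no UMI. The CD8b tag, also found on T cells, was higher in the CD8a-tagged cells, at 1.67 against 0.407 UMIs per cell. It was read in 4 of 12 against 14 of 54 cells. In RNA, Cd8a was read in 6 of 12 against 1 of 54 cells, and Irf8, a factor of type 1 cells, at 1069 against 349 CPM. Cd24a of the type 1 list was also higher, at 169 against 95.9 CPM. Other genes of type 1 cells did not follow: Batf3 lay at 150 against 208 CPM, Cadm1 at 18.7 against 37.3 and Itgae at 0 against 2.66. Cd209a of the type 2 list had 2 UMIs against 1. Sirpa lay at 28.1 against 146 CPM, Tbc1d4 at 890 against 2995, and Cd274 at 216 against 506. Fscn1 (2250 and 1502 CPM) and Ccr7 (3234 and 3959) are genes of the rule, so both groups had to hold them. Relb, outside the rule, lay at 647 and 825 CPM, and Ccl5 at 4902 and 3075. Anxa3, named for its high ratio in these same members, lay at 872 and 530 CPM. Naaa had no UMI in the CD8a-tagged members. The CD86 tag stood at 18.8 and 14.3 UMIs per cell and I-A/I-E at 207 and 201. The median RNA depth was 9313.5 UMIs in the CD8a-tagged and 6866.5 in the CD172a-tagged cells, and its part in these values was not tested.

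**Figure D4:**
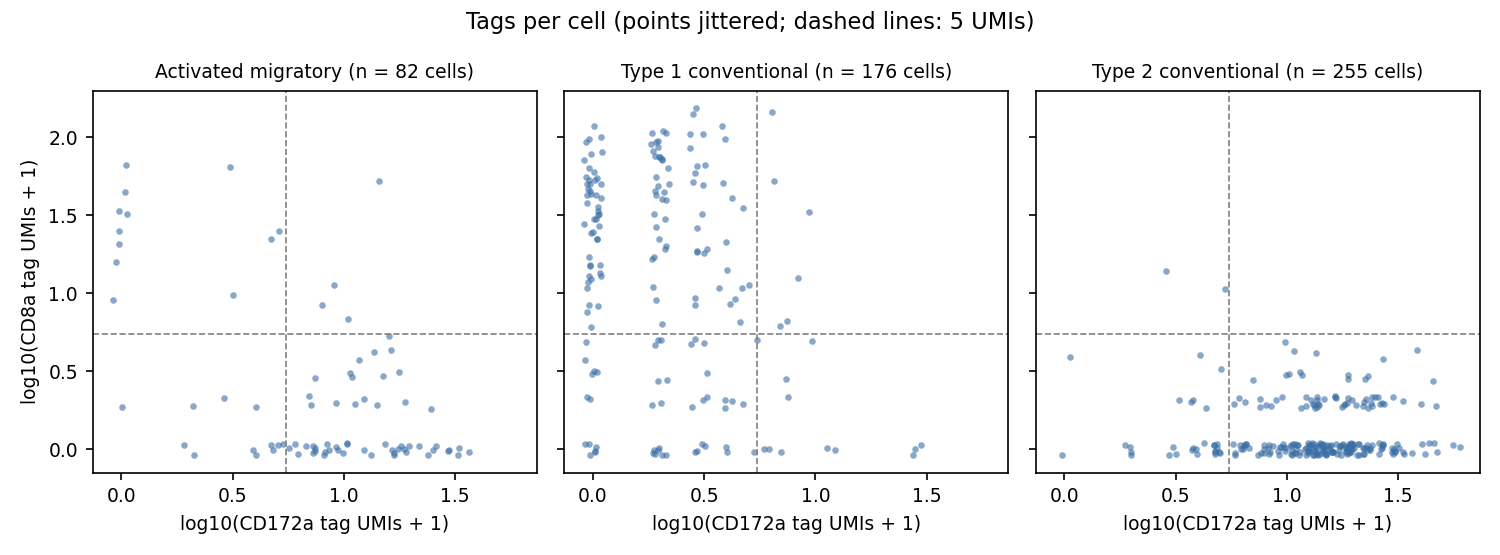
CD8a tag against CD172a tag in single cells (log10 of UMIs plus 1, points jittered), for 82 activated migratory, 176 type 1 and 255 type 2 cells, with dashed lines at 5 UMIs. Most members lie in the corner of type 2 cells, and 12 lie in the corner where most type 1 cells lie.

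The share of activated migratory cells was compared between the genotypes over replicates. Of all called cells they made up 0.196, 0.168, 0.327 and 0.186% in the WT replicates, 0.248, 0.0612, 0.171 and 0.221% in R594C/+, and 0.172 and 0.135% in R594C/R594C. The means were 0.219 ± 0.0728% (SD, n = 4), 0.175 ± 0.0824% (n = 4) and 0.154 ± 0.0263% (n = 2), and the groups overlapped. A two-sided exact permutation test of the trend with R594C copies over 3150 assignments gave p = 0.275 (smallest possible 0.000317), and the exact permutation F test over the 3 genotypes gave p = 0.576. Of the gated dendritic cells of all 3 kinds they were 16.2, 24.1, 26.2 and 13.0% in WT, 14.3, 4.00, 22.2 and 16.7% in R594C/+, and 14.4 and 16.4% in R594C/R594C. This trend had an exact permutation p of 0.345. The highest share of all cells was WT replicate 3 and the lowest R594C/+ replicate 2, whose exact 95% interval, which covers counting error only, reached from 0.00741 to 0.221%. R594C/R594C against WT alone gave an exact permutation p of 0.4, where 2 against 4 replicates cannot go below 0.0667.

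**Figure D5:**
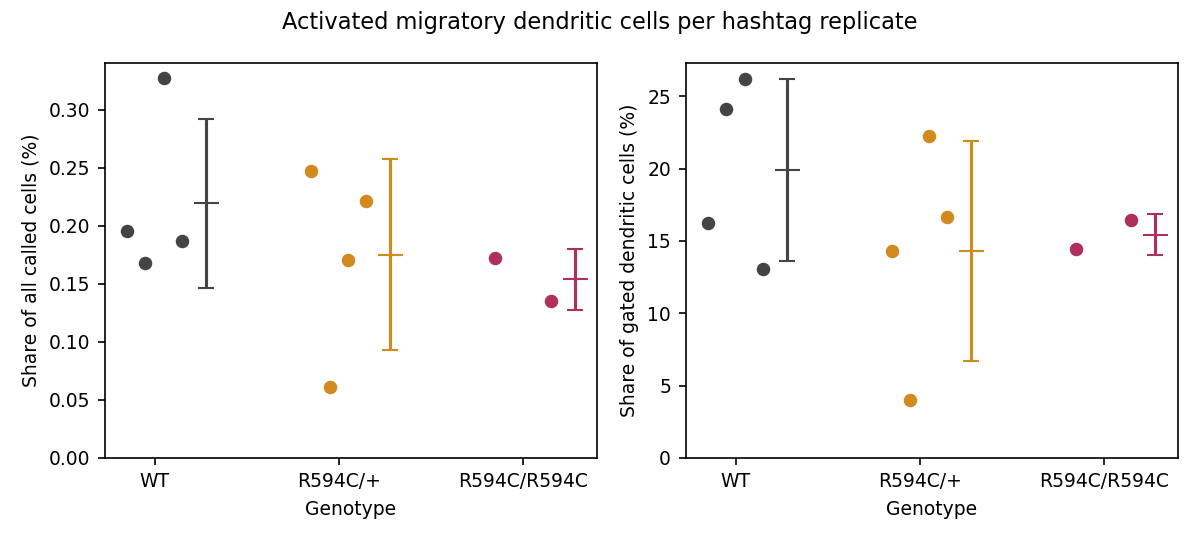
Share of activated migratory cells among all called cells (left) and among gated dendritic cells (right), in percent from 0, with 1 point for each replicate and bars at the mean ± SD. The genotypes overlap in both panels, and the R594C/R594C mean of 0.154% rests on 2 replicates.

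RNA of the members was compared between genotypes in 9 replicates, over 1318 genes. No gene passed an adjusted p of 0.05 (0% called) for R594C/R594C minus WT, R594C/+ minus WT or R594C/R594C minus R594C/+ with edgeR's quasi-likelihood test, where 39, 39 and 22 genes had an unadjusted p under 0.05. DESeq2 called none either, with 28, 31 and 14 at an unadjusted p under 0.05. None of the marker genes passed. For R594C/R594C minus WT the log2 difference was 0.14 for Fscn1 (SE 0.390), -0.01 for Ccr7 (SE 0.421), -0.05 for Relb (SE 0.336) and -2.19 for Ccl22 (SE 1.63). For R594C/+ minus WT they were 0.13, 0.38, 0.17 and -1.16, and for R594C/R594C minus R594C/+ 0.02, -0.39, -0.22 and -1.02, in the same order. For Fscn1, Ccr7 and Relb the sign changed with the replicates or settings used in at least 1 contrast. Ccl22 moved with single replicates: without WT replicate 4 it was -0.64 for R594C/R594C minus WT and 0.39 for R594C/+ minus WT, and without R594C/R594C replicate 2, which leaves 1 R594C/R594C replicate, it was -1.20 for R594C/R594C minus WT and -0.07 for R594C/R594C minus R594C/+. Without R594C/+ replicate 1 the last of these was -0.16. In simulated counts for R594C/R594C minus WT, over the same 1318 genes, the test recovered 100% of 4-fold changes and 21% of 2-fold changes. It also made 4 false calls. Those counts had the same fixed dispersion for every gene, not the spread of these replicates. They therefore cannot tell which changes the test would find in the members.

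Genes with the lowest unadjusted p did not pass and are given as values. Odc1, the rate-limiting enzyme of polyamine synthesis, stood at 20.1, 50.4, 86.4 and 192 CPM in WT, 262, 70.5, 296 and 217 in R594C/+, and 518 and 363 in R594C/R594C (log2 2.37 for R594C/R594C minus WT, SE 0.559, edgeR adjusted p = 0.999). The R594C/R594C values lay above all 4 WT values, but Odc1 was named for its low p, which favours such a gap. How many of all genes had the same gap was not counted. Hspe1, a mitochondrial chaperonin, lay at 362, 454, 346 and 360 CPM in WT and 807, 635, 909 and 996 in R594C/+ (log2 1.22), and Dnaja1, a cochaperone, at 240 to 281 in WT and 402 to 888 in R594C/+ (log2 1.45). Dnajb1 (1.72) belonged to the same family. Fabp5, a fatty acid carrier, ranged from 2398 to 3593 CPM in R594C/+ and stood at 293 and 1226 in R594C/R594C (log2 -2.08). Gm26917 (4.00) rested on R594C/R594C replicate 2 (1839 CPM against 124 in replicate 1), and Lyz2 (-5.67 for R594C/+ minus WT) on WT replicate 1 (1165 CPM). The others of this kind were Ncl (1.43), Mkrn1 (-1.97), Snx3 (-1.63) and Polb (-1.95) for R594C/R594C minus WT, Serinc3 (-1.49) and Ubb (-0.82) for R594C/+ minus WT, and Lrmp (1.87), Gm42418 (1.43), Rbbp4 (-1.54) and Maff (-1.58) for R594C/R594C minus R594C/+.

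None of the tested genes of any list passed between genotypes, with 0% called over all genes. Of the NF-kB list, 5 of the 14 tested genes were higher and 9 lower in R594C/R594C than in WT, with a median log2 difference of -0.05 (all genes -0.01). Migration and cytoskeleton genes were 3 higher and 10 lower (median -0.05), and MHC class II genes 2 and 7 (-0.06). Only 5 of the 28 IRE1 and XBP1s targets had enough counts to be tested, with 3 higher and 2 lower (0.19). For R594C/+ minus WT, 4 of these 5 were higher (0.42), and for R594C/R594C minus R594C/+ all 5 were lower (-0.21). Over all 1318 genes, 652 and 660 were higher in these contrasts. Such splits were not particular to this list: all 5 tested cholesterol synthesis genes were lower in the first (-0.99) and higher in the second (1.09). All 7 tested genes of restraint and tolerance were lower in the second (-0.41). The contrasts share their WT or R594C/+ samples.

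Among 51 antibody tags of the members none passed in any of the 3 contrasts (0% called, edgeR's quasi-likelihood test), with 1, 3 and 2 at an unadjusted p under 0.05. The lowest p for R594C/R594C minus WT was for CD150 (log2 1.91), a signalling receptor of lymphocytes, which rested on 1 replicate: 13.7 UMIs per cell in R594C/R594C replicate 1 against 0.5 to 2.71 in the 9 others. CD43 (-1.11) and I-A/I-E (0.62) came next. For R594C/+ minus WT CD357, known as GITR, differed by 1.01, CD11a by -0.76 and CD163, a scavenger receptor of macrophages, by 3.27, where R594C/+ replicate 3 stood at 9.63 UMIs per cell and the others at 0.0909 to 1.5. For R594C/R594C minus R594C/+ the 3 lowest were CD150 (2.64), Tim4 (2.66) and CD163 (-3.55).

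Whether the R594C/R594C effect differed between the members and type 2 cells was tested as an interaction over 2832 genes. None passed (0% called, 74 at an unadjusted p under 0.05, edgeR quasi-likelihood), and none passed over 15604 genes without a filter on low counts (241 at an unadjusted p under 0.05).

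Cells near the limits of the rule were described once. The 15 members with exactly 2 Fscn1 UMIs had Relb at 454 CPM, Ccl22 at 0 and the CD86 tag at 5.80 UMIs per cell, and the 18 cells left out with 1 Fscn1 UMI had Relb at 403 CPM, Ccl22 at 19.5 and CD86 at 11.1. Further out, 751 cells with no Fscn1 UMI had Relb at 196 CPM. The 10 members with 1 Cd79a UMI held Ccl22 at 555 CPM, and the 20 cells left out with 5 or more Cd79a UMIs had Relb at 140 CPM. The 6 members with 1 Ccr7 UMI had Relb at 265 CPM, and the 11 cells left out with none had it at 381. Of cells with 1 to 4 UMIs of H2-Aa, 9 were left out, with Relb at 1175 CPM, Il4i1 at 1593 and Ccl5 at 19614. The 7 members with 5 to 9 UMIs had 837, 1293 and 11939 CPM. The H2-Aa limit thus passed through cells with high Relb, Il4i1 and Ccl5 on both sides.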

How the data were processed

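CITE-seq libraries (mRNA, antibody tags and hashtags) of 3 captures, 1 per genotype, were used. Per the file headers, the raw UMI counts that the authors deposited came from Cell Ranger 5.0.0. Cell Ranger, STAR, Seurat 3.1.4 and mm10 are named per the submitters' processing notes, with no role or order given. These counts cover 55385 genes, named as in the files, with 191 antibodies and 24 hashtags.

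Barcodes with at least 200 genes, at most 10% mitochondrial UMIs and a top hashtag of at least 20 UMIs and 3 times the next were kept. Hashtags 0301 to 0304 gave replicates 1 to 4. Doublets of different hashtags were removed by that limit, and no doublet caller was run, so doublets within a hashtag could remain. Antibody reads per tag depend on antibody and staining. Intervals cover counting error only.

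Counts were summed over members in each replicate with at least 5 members, which left out R594C/+ replicate 2. Sums were fitted with edgeR 4.0.16 (TMM, filterByExpr, quasi-likelihood test with robust fitting) over 9 replicates of all genotypes, with Benjamini-Hochberg adjustment at 0.05. Tags were tested in the same way where their mean reached 10 UMIs, against conventional cells with each hashtag replicate as a block. Those cells come from the same replicate, which is the source of that pairing. DESeq2 1.42.0 and the settings in the closing section were alternatives. Shares were tested by two-sided exact permutation (scipy 1.17.1). CPM scale the summed RNA UMIs of a class or replicate to a total of 1e+06. Ratios carry no test. The tests were tried on simulated counts first. Other tools were R 4.3.3, limma 3.58.1, Python 3.11.15, numpy 2.4.6, pandas 2.3.3 and matplotlib 3.10.9.

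Named genes followed a rule: Fscn1, Ccr7, Ccl22, Relb, Ern1 and Xbp1; up to 8 folds per direction among genes past 0.05, or otherwise the 3 lowest unadjusted p; the 25 highest and 10 lowest ratios over the conventional cells, among genes read in at least 10% of cells; and examples from each list, of the highest level. Some list exceptions and low members were named after their values were seen. Dnaja1, Fabp5, Gm26917, Gm42418 and Lyz2 were lowest in p for 1 contrast each or more. Some genes and tags are not reported here. The members and the gene lists were chosen with earlier results of these data known.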

Additional observations from a re-analysis of the deposited data

Results flagged for a closer look

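In 57 groups of 4 replicates, Dixon's criterion set apart 9 values of the members at its 95% level, and chance sets apart about 1 group in 20. The groups were of WT replicates and, for shares and depth only, also of R594C/+ replicates. In RNA, WT replicate 1 had Dnajb1 at 100.46 CPM (others 222 to 240) and Mkrn1 at 140.64 CPM (235 to 247), and WT replicate 2 had Hspe1 at 453.71 CPM (346 to 362). Among the tags, in UMIs per cell, WT replicate 1 had CD8a at 26.333 (others 0 to 4.29), CD371 at 9.0 (1.0 to 1.71) and CD71 at 0.5 (1.43 to 1.5). WT replicate 2 had CD200 at 12.143 (0.333 to 1.5) and Tim4 at 11.143 (0.333 to 1.0), and WT replicate 4 had CD68 at 3.3333 (0 to 0.5). Each of these replicates held 6 or 7 members, so a few cells could set its mean. In WT replicate 1, 3 of the 6 members carried the CD8a tag without CD172a.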

How the results depend on the processing

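Counts of RNA calls, 0 in all 3 contrasts, rose under some settings. For R594C/R594C minus WT, R594C/+ minus WT and R594C/R594C minus R594C/+ there were 3, 6 and 5 calls with replicates of at least 10 members (1 WT and 1 R594C/+ replicate, each assumed to vary like the others), and 5, 4 and 4 without a filter on low counts (Gm26917, Odc1 and H2-M2 among them). With the hashtag number as a replicate block there were 1 (Lyz2), 3 (Xist, Lyz2, Ddx3y) and 1 (Xist). Same-numbered samples correlated at -0.242 to 0.249 in 6 pairs, others at -0.249 to 0.340 in 20 pairs. These correlations used deviations from genotype means, in which R594C/R594C replicates 1 and 2 mirror each other. So they cannot settle whether the numbers pair the samples. Sex as a covariate gave 1 call for R594C/R594C minus R594C/+ (Gm42418). Leaving out 1 R594C/R594C replicate leaves 1 in that group, assumed to vary like the others. Leaving out replicates gave 0 to 1, 0 and 0 to 2 calls: without R594C/R594C replicate 1 Gm26917 (both contrasts) and Gm42418, and without replicate 2 Fabp5. For antibodies it gave 0 to 1 in R594C/R594C minus WT and in R594C/R594C minus R594C/+, which was CD150 without R594C/R594C replicate 2, and for the interaction with type 2 cells 0 to 2, without R594C/R594C replicate 1. Tags against type 2 cells gave 30 calls (8 higher, 22 lower) with scaling to the total. The causes were not tested.

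Log2 values of named genes that changed sign, none of them called, were: R594C/R594C minus WT, Ccr7 0.12 with sex, 0.017 with replicates of at least 10 members, 0.024 with Cd79a at 0, 0.0018 with the 5-times hashtag limit and 0.14 without a filter, Relb 0.084 with the block, 0.072 with sex, 0.077 with Cd79a at 0 and 0.081 without a filter; R594C/+ minus WT, Ccr7 -0.73 and Relb -0.45 with at least 10 members and Ccl22 0.34 with Cd79a at 0; R594C/R594C minus R594C/+, Fscn1 -0.34 with sex, Ccr7 0.75 and Relb 0.20 with at least 10 members, Relb 0.027 with the block and 0.014 with Cd79a at 0. CD150 for R594C/R594C minus WT was -0.36 with Cd79a at 0. Leaving out single replicates moved Fscn1 over -0.10 to 0.38 and Ccr7 over -0.14 to 0.16 and Relb over -0.27 to 0.16 for R594C/R594C minus WT, Fscn1 over -0.23 to 0.32, Ccr7 over -0.25 to 0.68 and Ccl22 over -1.99 to 0.39 (the highest without WT replicate 4) for R594C/+ minus WT, and Fscn1 over -0.24 to 0.39 and Ccr7 over -0.72 to 0.25 for R594C/R594C minus R594C/+. CD150 ranged from -1.42 to 2.90 against WT and from -0.63 to 3.84 against R594C/+ (the lowest without R594C/R594C replicate 1), and I-A/I-E from -0.026 to 0.84 against WT.

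Among the named results, RNA between genotypes kept direction and side in 428 settings (35 changed sign, 10 passed the threshold), tags against conventional cells in 366 (24 missed the threshold) and tags between genotypes in 123 (4 changed sign, 2 passed). The gene list medians kept their direction in all 28 settings tried. The trends of the share of members kept their sign, with p from 0.202 to 0.638 over the alternatives. The RNA contrasts rest on 24 R594C/R594C members in 2 replicates.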

Other observations

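Lists not described above were also read in the members. Cholesterol synthesis genes were higher than in the conventional cells for 10 of 11, with a median ratio of 1.85 (all genes 0.879). Idi1, an isomerase of that pathway, stood at 153 CPM against 33.4 in type 1 and 38.5 in type 2 cells. Genes of cholesterol efflux were higher for 2 of 8. Genes of the interferon response were higher for 8 of 11 (median ratio 2.35), with Gbp2 at 156 CPM against 4.78 and 8.01, while the summed level ranged from 437 to 2439 CPM between replicates. Targets of ATF4 and CHOP were higher for 5 of 13 and substrates of IRE1-dependent decay for 2 of 9.

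Markers of proliferation summed to 417 CPM in the members, against 454 and 843 CPM in type 1 and type 2 cells, and 15 of 82 members held a UMI of Mki67 or Top2a. No value above was tested.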
